A study of Mus musculus with 6 samples.

Results

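Ribosomal protein genes were followed across the cell classes of the mouse small-intestinal epithelium. They were taken by symbol: names of the Rpl, Rps or Rplp type followed by a digit, and Rpsa, without pseudogene names and without the Rps6k kinases. The rule gave 87 of the 27998 genes in the files, 34 with small-subunit symbols and 53 with large-subunit symbols. All 87 had a position in the annotation used (GENCODE M21, build mm10). The rule used no measured value. It also took a few genes that are not ribosomal proteins in the strict sense: Rps19bp1, whose product binds the ribosomal protein S19, and Rpl6l, which this annotation lists as a processed pseudogene.

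The 6 libraries were 10x Chromium single-cell 3' libraries of small-intestinal epithelial cells from C57BL/6J mice aged 8 weeks, 3 of genotype wild-type (WT-1 to WT-3) and 3 of genotype Itgb7-/- (titled Itgb7 KO, here KO-1 to KO-3). Itgb7 encodes integrin β7, which pairs with integrin αE on T cells that lie in the epithelium, and the series title names such T cells as acting on stem cell fate. The labels say neither whether the deletion is in all cells nor how many animals went into a library, so a p-value here reflects how far these libraries spread, and that spread may be technical. After filters 25076 of 26153 barcodes were kept. The libraries held between 28475253 UMIs (KO-3) and 76133693 UMIs (WT-1).

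Itgb7 itself had 3, 8 and 2 UMIs (unique molecular identifiers, 1 per captured RNA molecule) in WT-1 to WT-3 and 18, 33 and 12 in KO-1 to KO-3. This goes against the labels, although a 3' tag can lie outside the deleted part of a gene. The group is therefore called "libraries labelled Itgb7 KO", and each direction between the groups rests on those labels. Epcam and Krt8, markers of epithelium, had a UMI in 98.9% or more of the kept cells of each library, and Ptprc, the pan-leukocyte marker, in at most 0.0738%. Median depth per kept cell differed from 22271 UMIs in WT-1 and 19391 in KO-1 to 11789, 12016, 9174.5 and 6067.5 in WT-2, WT-3, KO-2 and KO-3. The share of UMIs from mitochondrially encoded genes lay between 3.57% and 5.25%, highest in KO-3. The serial numbers in the deposited names put WT-1 beside KO-1, WT-2 in a run with KO-2 and KO-3, and WT-3 alone. What those numbers stand for is not stated, so the groups are not known batches. Of 25741 distinct barcode sequences, 410 occurred in more than 1 library.

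As background, each ribosome carries about one copy of each ribosomal protein, split between a small subunit that reads the mRNA and a large subunit that joins amino acids. The mRNAs of these proteins are among the most abundant in growing cells. Most begin with a run of pyrimidines, the terminal oligopyrimidine tract, through which mTOR signalling and the binding protein LARP1 control their translation and stability. In the intestinal crypt, stem cells and transit-amplifying cells divide quickly, and their daughters stop dividing as they become absorptive enterocytes or secretory goblet, Paneth, enteroendocrine and tuft cells.

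RefSeq promoter windows (build GRCm38.p6) were found for 66 of the 87 genes. The genes below are shown because their mRNA levels parted from those of their relatives in the results that follow, with Rplp2 as a typical member. Each line holds 20 bases before and 10 bases from the annotated start on the gene's own strand, and capitals mark a run of at least 8 consecutive C or T bases.
Rplp2, chr7:141447631-141447660, plus strand: cccactgcgtcagcgTCTTCCTTTCgccgc
Rpl35, chr2:39005122-39005151, minus strand: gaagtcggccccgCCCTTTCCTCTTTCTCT
Rpl36a, chrX:134585634-134585663, plus strand: aggaagtgcacccaggcaccgcctataaac
Rpl36al, chr12:69184058-69184087, minus strand: gttcgcattcccgtcgctcaggttcagttc
Rps27, chr3:90213639-90213668, minus strand: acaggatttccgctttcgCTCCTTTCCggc
Rps27l, chr9:66946066-66946095, plus strand: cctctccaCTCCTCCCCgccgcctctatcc
Rps27rt, chr9:114982730-114982759, minus strand: ggttaagaacttatcccttgctttccggcg
Rpl22, chr4:152324416-152324445, plus strand: atcagcgctgcttctggaatgttccagctc
Rpl22l1, chr3:28805488-28805517, plus strand: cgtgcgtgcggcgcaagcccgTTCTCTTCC

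Rps27l and Rpl22 had a further annotated start each, which is not shown. The Rpl22 window shown lies upstream of the GENCODE gene, which begins at 152325742. The window of its start not shown, 152325706 to 152325735, lies next to that position. A C or T run of that length stood in the window of 28 of the 66 ribosomal protein genes (42.4%) and of 3927 of all 27025 genes in the table (14.5%). Counted by start site, the shares were 37.2% of 78 and 12.6% of 32851. On the opposite strand, where the run would read as A or G bases, they were 5.13% and 13.1%. These are matches of letters around annotated starts, which can differ from the start used in these cells.

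Ribosomal protein genes gave 73765149 UMIs in the kept cells. Of the 87 genes, 78 had a mean above 1000 counts per 1000000 UMIs (CPM, over all kept cells of a library), and 61 were among the 100 highest genes of the whole data set. These libraries count molecules at the 3' end, so a CPM value is not divided by gene length. The 5 highest genes, which held 12.6% of the members' UMIs, were Rpl41, Rpl13, Rplp0, Rps18 and Rps29. Rpl41 encodes a very short protein of the large subunit, and its levels were 7059, 8066 and 9356 CPM in WT-1 to WT-3 and 7104, 7410 and 8898 CPM in KO-1 to KO-3. The groups overlapped.

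At the other end, Rpl10l had no UMI in any library, and a count of 0 is compatible with an expected count of up to 3 UMIs over all libraries, counting error only. Rpl39l had 6 and Rpl3l 35 UMIs in all. These are copies of Rpl10, Rpl39 and Rpl3 known from testis and muscle. These 3 genes were too low to be tested, and the other 84 passed the filter on low counts in each comparison. A further 4 genes stood well below the rest on average: Rps27rt at 535.6 CPM, Rpl6l at 109.7, Rps19bp1 at 88.1 and Rpl7l1 at 82.3. The next gene above them was Rpl22 at 958.6 CPM. For 74 of the 87 genes, the last 300 bases of a transcript shared at least 60 identical bases with another annotated gene. Their reads could be divided between copies or lost, so single levels are uncertain.

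Cells were grouped with the ribosomal protein genes left out of scaling and clustering, so the classes below were not formed by them. In every library the stem-like cells had the highest share of UMIs from ribosomal protein genes of the 6 classes that could be tested. Their share was 33.5%, 30.7% and 33.0% in WT-1 to WT-3 and 33.0%, 27.9% and 27.6% in KO-1 to KO-3. Transit-amplifying-like cells had 27.4%, 24.99% and 27.2% in WT-1 to WT-3 and 27.0%, 21.3% and 21.4% in KO-1 to KO-3. Set against stem-like cells of the same library, their share differed by -6.07 percentage points on average and was lower in each of the 6 libraries. They were above the other tested classes in 5 of 6 libraries, while in WT-1 enteroendocrine-like cells, at 29.2%, were above them.

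Among the differentiated classes, lower-villus enterocyte-like cells had 20.02% ± 2.63 (SD, n = 6 libraries), mature enterocyte-like cells 18.1% ± 2.93 and goblet-like cells 18.9% ± 3.10. Within a library, the lower-villus class was above the mature and above the goblet-like class in 6 of 6 libraries. Enteroendocrine-like cells had 29.2%, 17.8% and 18.8% in WT-1 to WT-3 and 22.9%, 14.7% and 14.6% in KO-1 to KO-3. The replicate 1 libraries were highest there, and WT-1 held only 28 such cells. Tuft-like cells ranged from 17.1% to 26.4% over the libraries. Paneth-like cells were lowest, at 5.01% in WT-1 and 5.26% in KO-1 and between 9.91% and 15.03% in the other 4 libraries. Both types had under 20 cells in some library and are given as values only. The median depth of Paneth-like cells ran from 6874 UMIs in the shallowest library to 93408 in the deepest.

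**Figure D1:**
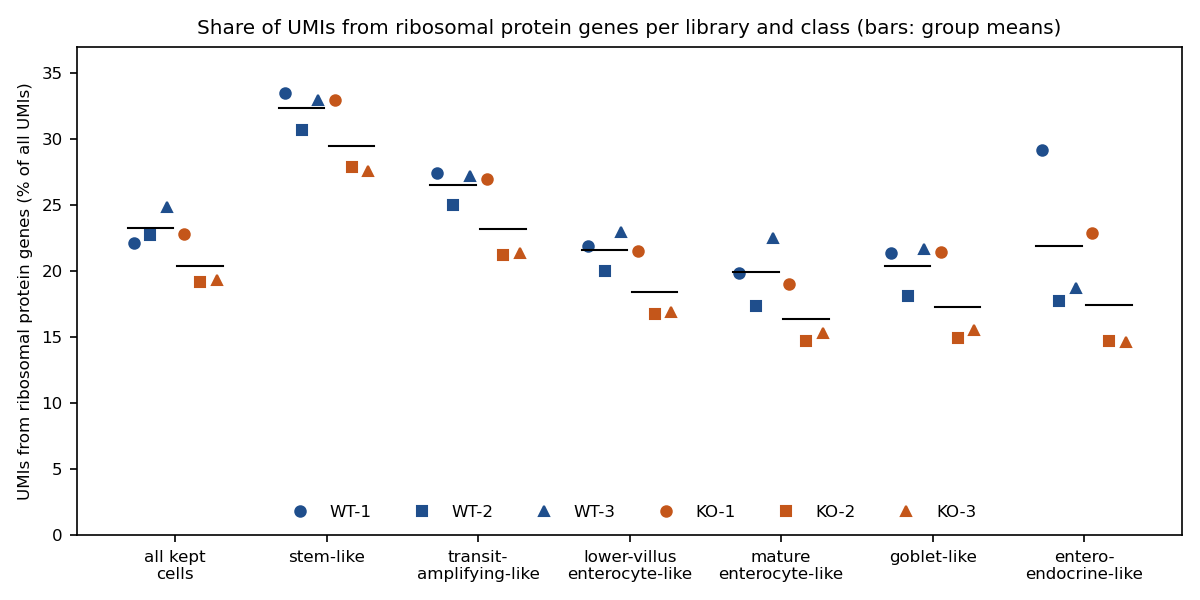
Share of UMIs from ribosomal protein genes (percent of all UMIs, vertical axis) in all kept cells and in 6 classes; each symbol is 1 library, circles, squares and triangles are replicates 1, 2 and 3, blue is wild-type, orange is labelled Itgb7 KO, and bars are group means. Stem-like cells are highest in every library, and in each class KO-1 lies near WT-1 except in enteroendocrine-like cells, while KO-2 and KO-3 lie lowest.

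Among the 29 single clusters the classes overlapped. Clusters led by genes of DNA replication and S phase, which stayed unnamed, had means over 6 libraries of 28.1% (cluster 6, with Hells and Mcm3), 25.8% (cluster 18, with Cdt1 and Mcm4) and 24.9% (cluster 0, with Rrm2 and Ccne1). A transit-amplifying-like cluster whose leading genes included the stem cell genes Lgr5 and Ascl2 (cluster 8) had 28.1%, and a cluster led by Neurog3, the factor that starts enteroendocrine fate, had 27.3% (cluster 22). The lowest named clusters besides Paneth-like cells were a mature enterocyte-like cluster led by the apolipoprotein genes Apoa4 and Apoa1 (14.1%) and a goblet-like cluster led by Zg16 and Clca1 (16.1%). A goblet-like cluster led by Atoh1, the secretory fate factor, had 21.9% (cluster 19). Transit-amplifying-like clusters 7 and 13, with 21.4% and 21.7%, lay below this cluster, below lower-villus cluster 14 (22.8%) and below enteroendocrine-like cluster 25 (23.4%). The mature cluster 3 (20.8%) lay above lower-villus clusters 1, 9 and 17 (17.7%, 20.6% and 19.8%). Among the 10 genes of highest fold, cluster 16 (mature) held 2 mature and 2 lower-villus enterocyte markers. Cluster 1 (lower-villus) held 3 lower-villus and 2 mature enterocyte markers, so these classes are not cleanly apart. Cluster 10 (goblet-like) held 4 goblet and 3 Paneth markers.

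**Figure D2:**
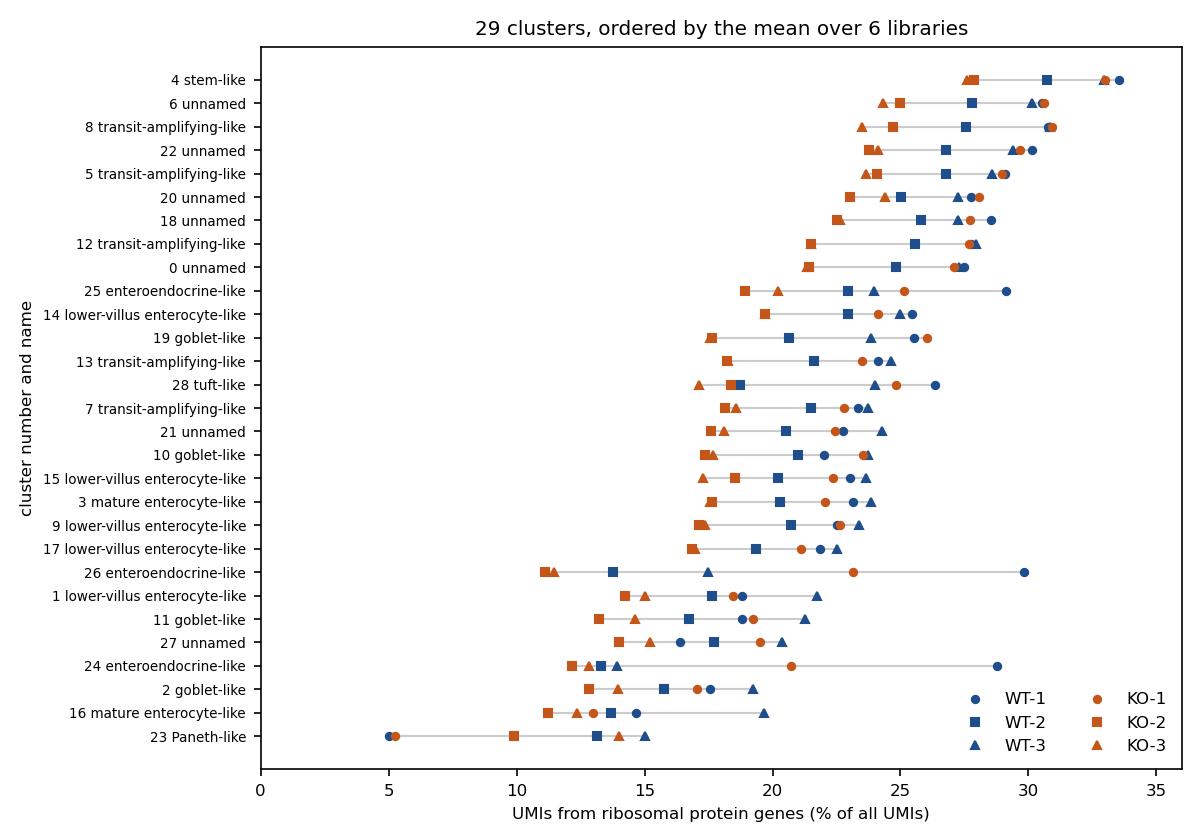
Share of UMIs from ribosomal protein genes (percent, horizontal axis) in each of 29 clusters, ordered by the mean of 6 libraries; each symbol is 1 library (blue wild-type, orange labelled Itgb7 KO) and the grey line spans the libraries. Cluster 4 (stem-like) is highest with a mean of 30.9%, and the Paneth-like cluster 23 is lowest with 10.4%.

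Within a class, the share also moved with the depth of a cell. In stem-like cells the deeper cells of each library, those above the median, had 1.19 to 1.71 points less than the shallower ones, in 6 of 6 libraries. In enteroendocrine-like cells the deeper cells had 1.54 to 7.64 points more, in 6 of 6 libraries. In the other 4 classes the sign differed between libraries. The part of depth in the class differences was not tested beyond this. Single stem-like cells of WT-1 had a median share of 33.4%, and the middle 90% of them lay between 30.02% and 37.8%. The matching range of single mature enterocyte-like cells of WT-1 was 9.47% to 27.5%, which was wider.

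Gene by gene, almost every ribosomal protein gene was lower in each differentiated class than in stem-like cells. Counts were summed per library and class and tested with edgeR's quasi-likelihood test with the library as a block, with Benjamini-Hochberg adjustment over 12365 genes at 0.05. In transit-amplifying-like cells 74 of the 84 tested genes fell and 2 rose, against 19.1% of all genes tested that fell and 25.9% that rose. In lower-villus enterocyte-like cells 79 fell and 2 rose (33.9% and 34.5% of all genes). In mature enterocyte-like cells 81 fell and 2 rose (34.2% and 34.4%). In goblet-like cells 75 fell and 1 rose (34.6% and 30.6%). In enteroendocrine-like cells all 84 tested genes fell (26.1% of all genes fell and 27.8% rose). Of the 84 genes, 70 fell in all 5 classes.

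The size of the change differed between genes, as the single genes below show. The median log2 fold change against stem-like cells was -0.32 for transit-amplifying-like, -0.47 for lower-villus enterocyte-like, -0.60 for mature enterocyte-like, -0.51 for goblet-like and -0.93 for enteroendocrine-like cells, where the median over all genes tested was 0.04, -0.01, -0.02, -0.05 and 0.01. These values rest on scaling by trimmed means of M-values (TMM). Scaled to the total of all other genes instead, the medians were -0.44, -0.85, -1.04, -1.004 and -0.88, and no ribosomal protein gene rose in any class. That scaling moved the median of all genes to -0.07, -0.39, -0.45, -0.54 and 0.06. Enteroendocrine-like cells had the lowest median under TMM scaling, although their share of UMIs was near that of the other differentiated classes. Scaled to the total UMIs of all genes their median was -0.67, against -0.79 in mature enterocyte-like and -0.77 in goblet-like cells.

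Rplp0, Rplp1 and Rplp2 make the stalk of the large subunit that recruits elongation factors. Rplp0 was at 7699, 7154 and 7567 CPM in stem-like cells of WT-1 to WT-3 and 7654, 6623 and 5769 CPM in KO-1 to KO-3. In mature enterocyte-like cells it was at 4424, 3812 and 4741 CPM and at 3998, 3407 and 2994 CPM. Every library was lower in the mature cells. Rplp2 was at 3825 ± 715 CPM (SD, n = 6) in stem-like and 2201 ± 578 CPM in mature enterocyte-like cells, and again each library was lower.

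The genes with the deepest falls were partly the same from class to class. Rpl12, which binds at the base of the stalk, changed by -0.89 ± 0.12 (log2, SE; edgeR adjusted p = 2.2e-08) in mature enterocyte-like cells and by -0.72 ± 0.12 (edgeR adjusted p = 1.1e-06) in lower-villus enterocyte-like cells. In goblet-like cells the deepest falls included those of the small-subunit genes Rps20 (-0.77 ± 0.10, log2, SE), Rps26 (-0.76 ± 0.06) and Rps19 (-0.73 ± 0.11). In enteroendocrine-like cells they were those of Rps2 (-1.36 ± 0.12), Rpl3 (-1.29 ± 0.09), Rpl22l1 (-1.27 ± 0.14) and Rpl12 (-1.27 ± 0.12).

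Rps19, Rpl5 and Rpl11 are genes whose loss in humans causes Diamond-Blackfan anaemia, and the products of Rpl5 and Rpl11 bind Mdm2 when ribosome assembly fails. Rps19 fell in all 5 classes, with log2 fold changes from -0.43 in transit-amplifying-like to -1.198 in enteroendocrine-like cells. Rpl5 and Rpl11 did so too, from -0.30 and -0.31 to -0.92 and -0.86. Rps6, the substrate of the S6 kinases, and Rpsa, which doubles as a laminin receptor, are described with the libraries below.

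**Figure D3:**
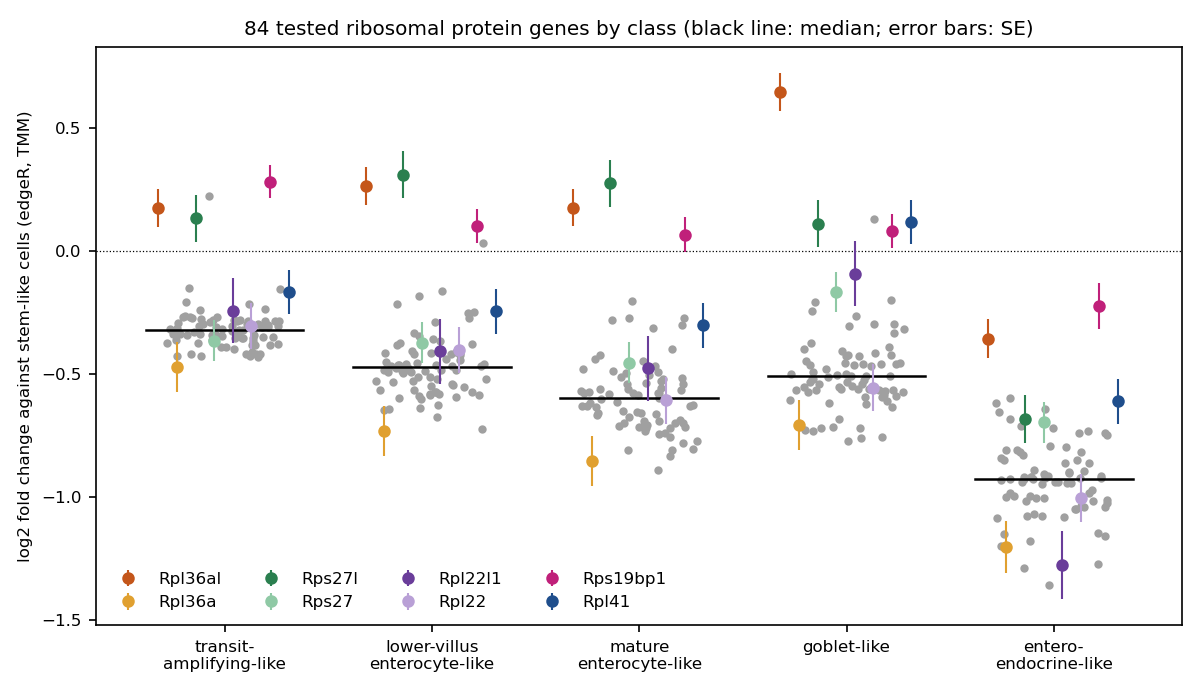
Log2 fold change against stem-like cells (vertical axis, edgeR with TMM scaling) of the 84 tested ribosomal protein genes in 5 classes; grey points are genes, coloured points are named genes with their standard error, and black lines are medians, from -0.32 to -0.93. Rpl36al stands above 0 in 4 classes and highest in goblet-like cells at 0.64, although scaling to the other genes puts it at -0.12 and -0.26 in the lower-villus and mature enterocyte-like classes.

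A handful of genes went against the rest. Rpl36al and Rpl36a encode nearly identical forms of the large-subunit protein eL42, and they moved apart. Rpl36al (ENSMUSG00000049751, chromosome 12, 69182731 to 69184083) was at 1022, 960.1 and 1088 CPM in stem-like cells of WT-1 to WT-3 and 1069, 883.7 and 835.8 CPM in KO-1 to KO-3. In goblet-like cells it was at 1269, 1277 and 1450 CPM and at 1356, 1145 and 1124 CPM, higher than in stem-like cells in 6 of 6 libraries. Its log2 fold change there was 0.64 ± 0.08 (SE; edgeR adjusted p = 2.8e-09), and 0.15 (adjusted p = 0.068) when scaled to the total of the other genes. In lower-villus and mature enterocyte-like cells it stood at 0.26 ± 0.08 and 0.18 ± 0.08 with TMM scaling (edgeR adjusted p = 0.0026 and 0.041) and at -0.12 and -0.26 when scaled to the other genes.

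Rpl36a (ENSMUSG00000079435, chromosome X, 134585654 to 134588062) was at 2702, 2359 and 2518 CPM in stem-like cells of WT-1 to WT-3 and 2570, 2112 and 1983 CPM in KO-1 to KO-3, and at 1507, 1130 and 1423 CPM and 1472, 928.8 and 934.0 CPM in goblet-like cells. It fell in all 5 classes, with log2 fold changes from -0.47 to -1.204. Because both genes of a pair are counted in the same cells, their ratio does not depend on the scaling. Stem-like cells had 41.2 ± 1.85 (SD, n = 6 libraries) Rpl36al UMIs per 100 Rpl36a UMIs, transit-amplifying-like cells 64.5 ± 4.62, mature enterocyte-like cells 84.3 ± 6.88 and goblet-like cells 106 ± 15.7. The stem-like ratios of the 6 libraries, 37.8 to 43.2, did not overlap those of any other class tested, of which the lowest was 56.3 in enteroendocrine-like cells of WT-1. The transcript ends of both genes share 60 bases with other annotated genes but not with each other.

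Rps27l is a copy of Rps27 that p53 is known to induce. It was at 1022 ± 58.7 CPM (SD, n = 6) in stem-like, 1125 ± 84.1 in transit-amplifying-like and 1080 ± 86.7 in mature enterocyte-like cells. With TMM scaling it rose in lower-villus (log2 0.31 ± 0.09, edgeR adjusted p = 0.0042) and mature enterocyte-like cells (0.27 ± 0.10, adjusted p = 0.011), while scaled to the other genes it stood at -0.07 and -0.17 there, with adjusted p of 0.50 and 0.11. With TMM scaling Rps27 fell by 0.37 and 0.46 on the log2 scale in those classes. Per 100 Rps27 UMIs, stem-like cells had 19.1 ± 4.40 Rps27l UMIs (SD, n = 6) and mature enterocyte-like cells 31.7 ± 7.10, with the ratio higher in the mature cells of 6 of 6 libraries. In enteroendocrine-like cells it was 19.1 ± 5.49, above the stem-like ratio in 3 of 6 libraries.

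Rpl22 and Rpl22l1 encode alternative forms of the large-subunit protein eL22. Goblet-like cells had 167 ± 22.4 (SD, n = 6) Rpl22l1 UMIs per 100 Rpl22 UMIs and stem-like cells 121 ± 13.2, higher in 6 of 6 libraries. Enteroendocrine-like cells had 97.8 ± 20.5, below the stem-like ratio in 5 of 6 libraries. The mature enterocyte-like class was above the stem-like ratio in 6 of 6 libraries, as the goblet-like class was, and the lower-villus class in 2 of 6. The ratio between these copies thus moved in opposite directions in the 2 secretory classes.

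Rps19bp1 and Rpl7l1, which rose in transit-amplifying-like cells (log2 0.28 ± 0.07, edgeR adjusted p = 0.0007, and 0.22 ± 0.07, adjusted p = 0.012), are not structural proteins of the finished ribosome. Both calls were lost when scaled to the other genes, with adjusted p of 0.053 and 0.26. Rps27rt, a copy of Rps27 on chromosome 9 (114982366 to 114982739), shares at least 60 bases of its transcript end with Rps27. It had 12.8 ± 5.13 UMIs per 100 Rps27 UMIs in stem-like cells and between 12.3 and 13.1 on average in the other classes. The ratio hardly moved between classes of a library, but it ran over libraries from 8.11 in KO-1 and 8.58 in WT-1 to 21.4 in KO-3 over all kept cells, the shallowest library.

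**Figure D4:**
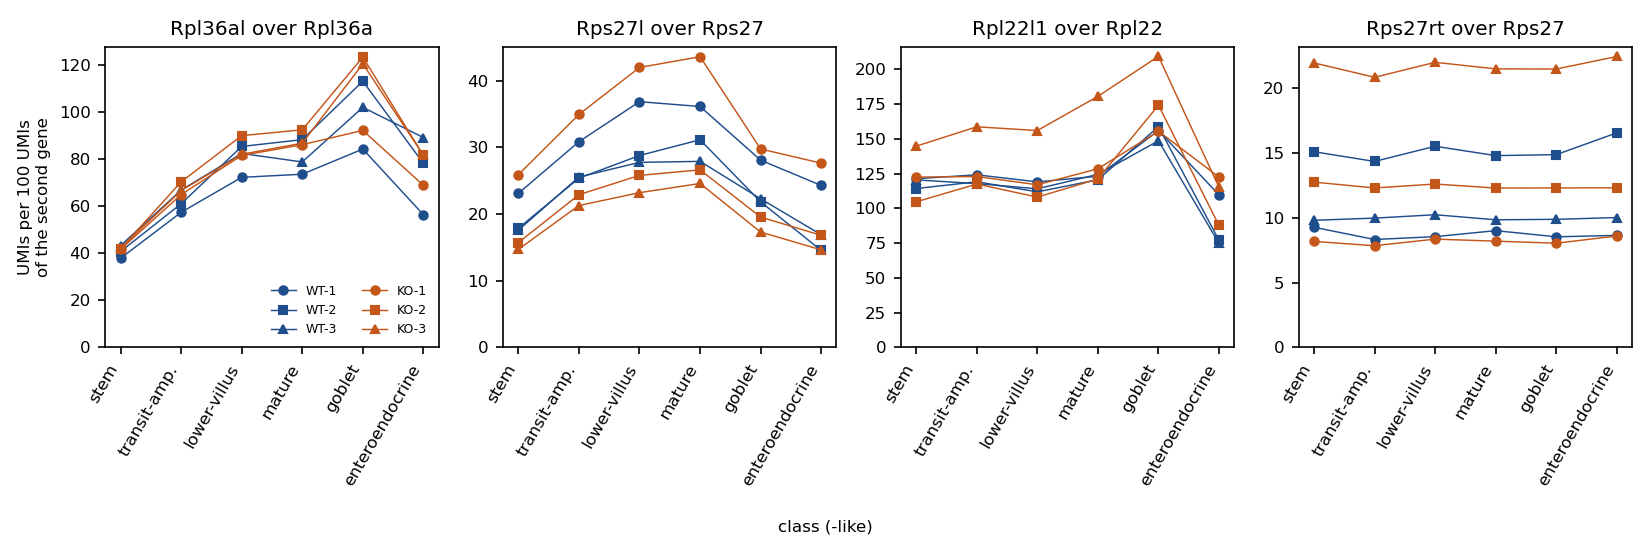
UMIs of one gene per 100 UMIs of its relative (vertical axes, each from 0) in 6 classes, 1 line per library, blue for wild-type and orange for libraries labelled Itgb7 KO. Rpl36al over Rpl36a rises from about 41.2 in stem-like to 106 in goblet-like cells in a like way in each library, whereas Rps27rt over Rps27 differs between libraries and is nearly flat over classes.

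Small-subunit and large-subunit genes fell by like amounts, with a slight tilt. Stem-like cells had 76.0 ± 0.83 small-subunit UMIs (SD, n = 6) per 100 large-subunit UMIs and goblet-like cells 70.8 ± 1.18. The stem-like ratio was the higher one in 6 of 6 libraries for each of the 5 classes. In goblet-like cells the median log2 fold change was -0.54 over 34 small-subunit genes and -0.48 over 50 large-subunit genes. The difference is small beside the fall that both share.

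Genes that work with the ribosome were examined as lists, whose counts with TMM scaling stand beside the shares of all genes given above (25.9% rose and 19.1% fell in transit-amplifying-like, 34.4% and 34.2% in mature enterocyte-like, 30.6% and 34.6% in goblet-like and 27.8% and 26.1% in enteroendocrine-like cells). Only the ribosomal protein genes were left out of the clustering, so genes of these lists could take part in forming the classes compared. Of 10 genes listed under translation elongation, 7 fell in transit-amplifying-like cells and none rose, and all 10 fell in enteroendocrine-like cells. The list also holds Naca, Btf3, Pabpc1 and Tpt1, which are not elongation factors in the strict sense. Eef1a1, the factor that brings aminoacyl-tRNA to the ribosome, changed by -0.40 ± 0.06 (log2, SE) and -0.84 ± 0.06 in those classes, and Eef1g by -0.39 ± 0.07 and -1.04 ± 0.07. Tpt1, which is bound to the same translation machinery, was an exception in goblet-like cells, where it stood at 0.13 ± 0.06 (edgeR adjusted p = 0.048) with TMM scaling while the other 9 fell. This direction flipped when scaled to total UMIs (-0.13) and to the other genes (-0.37), and with the latter scaling all 10 fell.

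Ribosome assembly genes fell further than the ribosomal protein genes in mature cells. Of 46 such genes, 44 fell and none rose in mature enterocyte-like cells, with a median log2 fold change of -1.46, and 42 fell and 1 rose in goblet-like cells, with a median of -0.90. Npm1 and Ncl, abundant proteins of the nucleolus, changed by -2.08 ± 0.08 and -2.17 ± 0.09 in mature enterocyte-like cells. In transit-amplifying-like cells 23 assembly genes fell and 4 rose, with a median of -0.17. For comparison, the ribosomal protein genes stood at -0.60, -0.51 and -0.32 in these classes. Of 19 genes of RNA polymerase I, which transcribes the large rRNAs, and its factors, 14 fell and 2 rose in mature enterocyte-like cells, with a median of -0.97.

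Translation initiation genes were mixed. In mature enterocyte-like cells 22 of 28 fell and 5 rose, with Eif3f changing by -0.53 ± 0.06 and Eif1 by 0.48 ± 0.06 (0.036, adjusted p = 0.60, when scaled to the other genes). Mitochondrial ribosomal proteins serve the ribosome inside mitochondria. Of 77 genes, 53 rose and 2 fell in transit-amplifying-like cells with TMM scaling, 35 rose and 15 fell in mature enterocyte-like cells, and 53 fell and 8 rose in goblet-like cells. Their medians were 0.26, 0.14 and -0.33, where those of all genes tested were 0.04, -0.02 and -0.05. Scaled to the other genes, 30 rose and 7 fell, 9 rose and 51 fell, and 71 fell and none rose, with medians of 0.14, -0.30 and -0.82 beside -0.07, -0.45 and -0.54 for all genes. The direction in mature enterocyte-like cells thus turned with the scaling. Mrpl12 stood there at 0.50 ± 0.13 with TMM scaling and at 0.056 (adjusted p = 0.72) when scaled to the other genes. In goblet-like cells it changed by -0.69 ± 0.14 and by -1.19. Of the 13 mitochondrially encoded genes, 12 rose in mature enterocyte-like and 12 fell in goblet-like cells with TMM scaling. Scaled to the other genes, 1 rose and 1 fell in the former and 13 fell in the latter.

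Among the ribosomal proteins that the symbol rule leaves out, Fau, which encodes a small-subunit protein fused to a ubiquitin-like protein, stood at 0.30 ± 0.07 (log2, SE; edgeR adjusted p = 0.00019) in mature enterocyte-like cells with TMM scaling. Scaled to total UMIs it stood at 0.11 (adjusted p = 0.079) and scaled to the other genes at -0.14 (adjusted p = 0.068). In goblet-like cells it fell by 0.42 with TMM scaling and by 0.91 when scaled to the other genes. Gnb2l1, the scaffold protein RACK1 of the small subunit, changed by -0.60 ± 0.09 and -0.48 ± 0.09. Of 12 tested pseudogene symbols, which share sequence with the ribosomal protein genes, all 12 fell in mature enterocyte-like cells with a median of -0.57. Of 14 regulators of ribosomal protein synthesis, 6 rose and 7 fell there (3 and 7 when scaled to the other genes). Cdkn1a, the cell-cycle inhibitor p21, rose by 2.88 ± 0.16 and Trp53 fell by 1.87 on the log2 scale.

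Between the groups, no ribosomal protein gene was called in any class. In all kept cells edgeR called 0 of 84 genes at an adjusted p of 0.05, where 0.00738% of the 13556 genes tested were called lower and 0% higher. None of the 84 had an unadjusted p under 0.05, and DESeq2 also called none. Among stem-like, transit-amplifying-like, lower-villus enterocyte-like and goblet-like cells edgeR likewise called 0 members, beside 0.011%, 0.00862%, 0.00925% and 0.00903% of all genes called lower and 0% higher. In mature enterocyte-like and enteroendocrine-like cells it called 0 members and 0% of all genes in both directions. The lowest adjusted p of a member in all kept cells was 0.951.

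The fold changes were nevertheless mostly negative. Libraries labelled Itgb7 KO against wild-type had a median log2 fold change over the 84 genes of -0.24 in all kept cells. By class it was -0.20 for stem-like, -0.22 for transit-amplifying-like, -0.24 each for lower-villus enterocyte-like and goblet-like, -0.29 for mature enterocyte-like and -0.42 for enteroendocrine-like cells. The median over all genes tested stayed between -0.01 and 0.00. In all 6 classes 75 of the 84 genes were negative and 1, Rps27rt, was positive. The classes come from the same 6 libraries, so they do not repeat the comparison independently, and a matching share over all genes is not given. The groups overlapped for all 84 genes in all kept cells, where 2.85% of all genes tested did not overlap with lower values in the libraries labelled Itgb7 KO and 2.57% with higher ones.

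Leaving out a library moved these values. Without KO-1 the median in all kept cells was -0.44, and 60 of the 84 genes had an unadjusted p under 0.05 while none passed adjustment (lowest adjusted p = 0.18). Without KO-2, KO-3 or WT-1 the median was -0.13, -0.15 and -0.14. When replicate number was added as a block, the median was -0.25, with 32 genes under an unadjusted p of 0.05 and none called (lowest adjusted p = 0.65). With the serial number as a block it was -0.18, with 1 gene under an unadjusted p of 0.05 and none called (lowest adjusted p = 0.98). The share of all genes under that unadjusted p is not given, so these counts cannot show a shift particular to ribosomal protein genes.

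The class medians moved as well. In enteroendocrine-like cells the median was 0.042 without WT-1, the library with 28 such cells, so the negative value there rests on that library. It was -0.85 without KO-1, -0.26 without KO-2 or KO-3, and -0.60 and -0.59 without WT-2 and WT-3. With the replicate number as a block 57 genes of that class had an unadjusted p under 0.05, and with the serial number 61, and none was called (lowest adjusted p = 0.39 and 0.12). Here too the share of all genes under that unadjusted p is not given. In mature enterocyte-like cells the median ran from -0.49 without KO-1 to -0.19 without KO-2 and was -0.17 with the serial number block. In stem-like cells it was -0.38 without KO-1, -0.10 without KO-2, -0.11 without KO-3, -0.12 without WT-1 and -0.14 with the serial number block.

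The share of UMIs shows the same split by library. In all kept cells it was 22.2%, 22.7% and 24.9% in WT-1 to WT-3 and 22.8%, 19.1% and 19.3% in KO-1 to KO-3, so the groups overlapped through KO-1. The group means were 23.3% ± 1.42 and 20.4% ± 2.08 (SD, n = 3 each). KO-1 was 0.67 points above WT-1, the library beside it in the serial numbers. The mean of KO-2 and KO-3 was 3.51 points below WT-2, the wild-type library of their serial number group. That group has no other wild-type library to give the spread of WT-2. In 28 of the 29 clusters both KO-2 and KO-3 had lower shares than each of the other 4 libraries, the Paneth-like cluster being the exception. In 20 of the 29 clusters KO-1 and WT-1 differed by less than 1 point.

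Inside the stem-like class KO-1 was 0.55 points below WT-1, while the mean of KO-2 and KO-3 was 2.97 points below WT-2. KO-2 and KO-3 were also the 2 shallowest libraries. WT-2, of the same serial number group, had the higher share. With only barcodes of at least 7754 UMIs in each library, the median log2 fold change over the 84 genes in all kept cells was -0.24, as it was with all of them. Depth above that minimum still differed between libraries, and its part in the lower share was not tested beyond this. The cells of KO-3 also had the highest mitochondrial share, 5.25%.

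The single genes differed in how they followed this split. Genes were taken here after their values were seen. Rps12 and Rpl30 were the lowest in KO-2 and KO-3 against their own mean. Rps12 was at 2526, 1916 and 2272 CPM in WT-1 to WT-3 and 2695, 1326 and 1113 CPM in KO-1 to KO-3. Rpl30 was at 1294, 974.7 and 1265 CPM and at 1399, 695.9 and 597.0 CPM. In both, KO-1 was the highest of all 6 libraries and KO-3 the lowest. Rps15a, Rpl30 and Rps12 had the most negative fold changes in all kept cells, -0.40 ± 0.25, -0.40 ± 0.39 and -0.40 ± 0.39 (log2, SE), each with an edgeR adjusted p of 0.951.

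Rpl35, Rps27 and Rps28 went the other way. Rpl35 was at 2269, 2979 and 3520 CPM in WT-1 to WT-3 and at 2043, 3383 and 4461 CPM in KO-1 to KO-3. Rps27 was at 3142, 4120 and 4479 CPM and at 3178, 4204 and 5158 CPM. In both, KO-3 was highest and the replicate 1 libraries were lowest, whichever their label. Of the 84 genes, 18 were higher in both replicate 1 libraries than in each of the other 4, and 15 were lower in both. The groups overlapped in each of these genes. A matching share over all genes is not given. Deviations of WT-1 and KO-1 from their group means correlated at 0.85 over 7187 genes, so the split is not read as particular to ribosomal protein genes. Rps27rt had the largest positive fold change (0.48 ± 0.46, log2, SE), which rests on 1105 CPM in KO-3 and was -0.20 without that library.

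Most members lay between these extremes. Of the 84 genes in all kept cells, 70 were lower in both KO-2 and KO-3 than in WT-2 and 4 were higher in both. In the same cells 74 were higher in KO-1 than in WT-1, a count over all classes together that is not given by class. Matching shares over all genes are not given, so these counts cannot be called particular to ribosomal protein genes. Rplp1 was at 3907, 3193 and 3694 CPM in WT-1 to WT-3 and 4132, 2325 and 2106 CPM in KO-1 to KO-3. Rps6 was at 2814, 3104 and 3263 CPM and at 2857, 2645 and 2677 CPM, and Rpsa at 2113, 1986 and 1946 CPM and at 2227, 1632 and 1453 CPM. Rps19 was at 4209, 4834 and 4993 CPM and at 4224, 4402 and 4934 CPM, and for this gene KO-3 lay among the wild-type libraries.

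**Figure D5:**
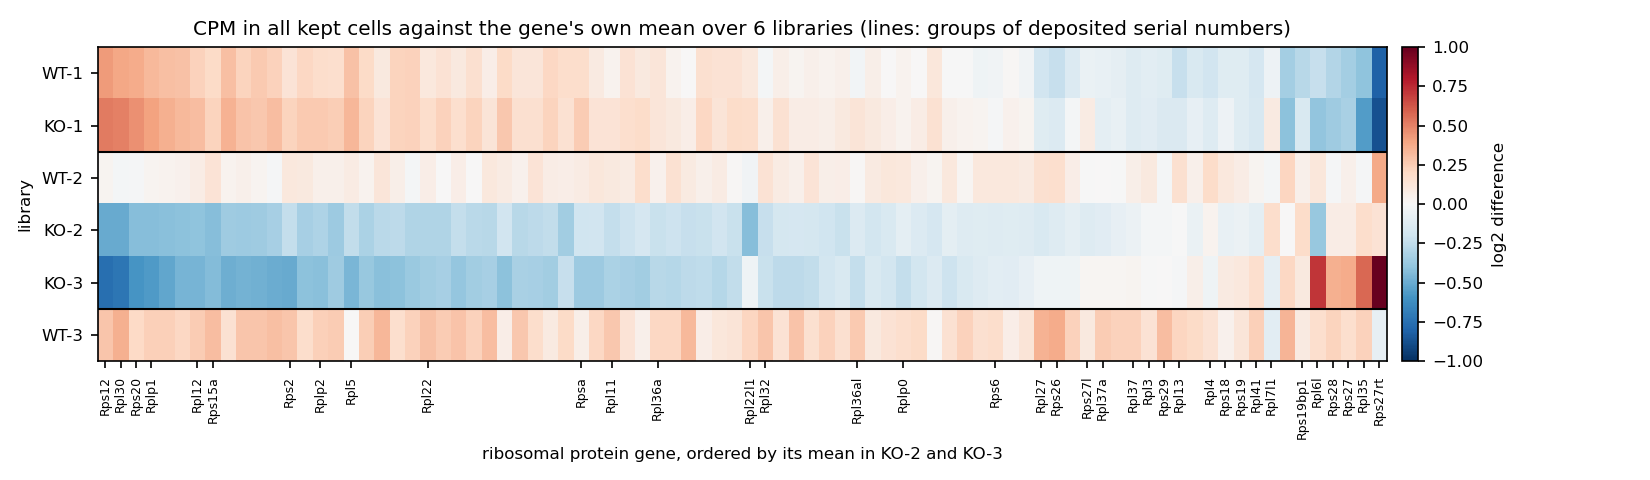
CPM of 84 genes with at least 500 UMIs in all kept cells, as the log2 difference from the gene's own mean over 6 libraries. Red is above and blue below, on a scale from -1 to 1. Rows are libraries grouped by the serial numbers in the deposited names, with lines between the 3 groups. Most of the genes named in the text are labelled, and genes are ordered by their mean in KO-2 and KO-3. WT-1 and KO-1 are alike, and KO-2 and KO-3 run from low Rps12 and Rpl30 on the left to high Rpl35 and Rps27rt on the right.

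In single classes, the groups did not overlap for few members. Lower values in all 3 libraries labelled Itgb7 KO were found for 1 gene of stem-like cells (Rpl4), 6 genes of transit-amplifying-like, 3 each of lower-villus and mature enterocyte-like, 1 of goblet-like and 2 of enteroendocrine-like cells. Of all genes tested, 4.19%, 4.47%, 5.87%, 5.84%, 4.29% and 2.21% did so. Set against these shares, the members' counts were lower in the stem-like, both enterocyte-like and goblet-like classes, close in enteroendocrine-like cells and higher in transit-amplifying-like cells. There the 6 genes were Rps6, Rps29, Rpl27, Rpl32, Rpl37 and Rpl37a, with log2 fold changes of -0.14 to -0.29. Higher values in all 3 were found for Rps19bp1 in stem-like cells (0.20 ± 0.13), where 3.7% of all genes tested did so, and for no member in the other 5 classes. Of all genes tested, 3.41% did so in transit-amplifying-like, 3.2% in lower-villus and 3.18% in mature enterocyte-like, 2.56% in goblet-like and 2.38% in enteroendocrine-like cells. No gene had separate groups in the same direction in more than 2 classes.

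The lists of related genes gave the same picture between the groups. In all kept cells none of the 10 elongation, 28 initiation, 46 assembly, 19 polymerase I, 77 mitochondrial ribosomal protein or 14 regulator genes was called. Their median log2 fold changes were -0.20, -0.01, 0.00, -0.05, 0.01 and 0.00. The elongation genes were near the ribosomal protein genes, and Eef1a1 stood at -0.41 ± 0.32 and Tpt1 at -0.39 ± 0.43, with an edgeR adjusted p of 0.951 each.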

How the data were processed

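For each library the authors deposited a sparse matrix of raw UMI counts, with genes as rows and barcodes as columns. The submitters' processing notes name build mm10, Cell Ranger 2.1.1, bcl2fastq 2.17.1.14 and, without a version, Seurat. Barcodes with at least 500 genes, 1000 UMIs and at most 25% mitochondrial UMIs were kept: 3 barcodes had too few genes, 0 too few UMIs and 107 too high a mitochondrial share. Scrublet scores (scanpy 1.11.5) were used to remove the highest 0.8% per 1000 barcodes (969 in all), because the automatic threshold marked under 0.5% in 5 of 6 libraries. Without the ribosomal protein genes, 2000 variable genes and 30 components were corrected for library by an own implementation of the Harmony type and clustered (Leiden, resolution 1.5, 15 neighbours) into 29 clusters. A cluster was called X-like from listed markers: the class with the most markers among its 10 genes of highest fold (ties broken by the first 50), with 3 or more among the first 50. Unnamed clusters held 5378 cells.

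UMIs were summed per library and class with 20 or more cells in each library and tested with edgeR 4.0.16 (TMM, filterByExpr, Benjamini-Hochberg at 0.05), and with DESeq2 1.42.0 as an alternative. Both edgeR designs were tested on simulated data, in which genes were drawn independently with the same set spread. That setting differs from these libraries, so it does not measure the power of the test between the groups. Shares of UMIs are described without a test, although exact permutation tests over libraries had been planned. The members, lists and naming rule were chosen with earlier results of these data known. Genes named were the stalk genes, disease and p53-linked genes, copies and their partners, the 5 highest, those with no UMI, up to 4 called genes with the largest and the smallest change per class, and up to 3 per list. Between the groups, the 3 genes with the largest absolute change were taken. The main fits between the groups did not pair libraries, and the replicate number as a block was an alternative. Deviations from the group means over 7187 genes correlated above 0.1 for numbers 1, 2 and 3 (0.85, 0.56 and 0.46). Libraries of unlike number correlated as highly (WT-2 with KO-3 at 0.73, WT-3 with KO-2 at 0.43), so only number 1 stood apart. Deviations within a group of 3 balance out, so 1 outlying pair raises the other correlations. The check therefore cannot show pairing for numbers 2 and 3. Values of a few single genes that the rule picks are not reported here.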

Additional observations from a re-analysis of the deposited data

How the results depend on the processing

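Of 1244 values of named genes under other settings, 1141 kept their direction and side of the threshold, 74 lost and 10 gained a call and 19 changed sign. Of 494 shares, differences and counts, 455 stayed close and 39 moved. The replicate block changed no call of a member, and 0 members were called. The difference in share over all kept cells, -2.82, is by arithmetic the same with and without pairing. The common UMI minimum of 13621 left too few cells in KO-3 and gave no value, so 7754 was used instead, chosen after seeing the data. Against stem-like cells, the share differed by -4.33, -4.93 and -5.08 points in transit-amplifying-like cells with doublets kept, with the members in the clustering and at resolution 1. In lower-villus enterocyte-like cells it differed by -8.87, -8.40 and -9.49 and in goblet-like cells by -9.43, -10.6 and -11.0 under the same settings. It was -15.03 in mature enterocyte-like cells with doublets kept and -12.9 in goblet-like cells without mitochondrially encoded UMIs. The number of members called higher in transit-amplifying-like cells was 0 with doublets kept, 1 with members in the clustering, 0 scaled to the other genes, and 1 to 2 with a library left out (1 without WT-1, WT-2, WT-3 or KO-3). In lower-villus enterocyte-like cells it was 0 scaled to total UMIs and 0 scaled to the other genes. In mature enterocyte-like cells it was 1 with doublets kept, 1 with members in the clustering, 1 at resolution 1, 0 under both scalings, and 0 to 2 with a library left out (0 without WT-2, KO-2 or KO-3 and 1 without WT-3 or KO-1). In goblet-like cells it was 2 with DESeq2, 2 with doublets kept, 2 at resolution 1, 3 with members in the clustering, 5 with no filter, 0 scaled to the other genes, and 1 to 5 with a library left out (5 without WT-1, 3 without KO-3 and 2 without WT-2). Between the groups, log2 fold changes changed sign for Rps27 at the minimum of 7754 UMIs (-0.0053) and Rps27l with the serial number block (0.0065). With a library left out they ran from -0.20 (without KO-3) to 0.82 (without KO-1) for Rps27rt, from -0.097 (without KO-3) to 0.17 for Rps27, from -0.16 to 0.063 (without KO-2; 0.019 without WT-1) for Rps27l, from -0.099 to 0.031 (without KO-2) for Rps18, from -0.32 to 0.019 (without WT-1) for Rps14 and from -0.0061 (without KO-1) to 0.19 for Rpl7l1. Against stem-like cells, scaling to the other genes turned Rpl36al (-0.12) and Rps27l (-0.073) in lower-villus, Rpl36al (-0.26) and Rps27l (-0.17) in mature enterocyte-like and Rps27l (-0.38) in goblet-like cells. Scaling to total UMIs turned Rpl36al in mature enterocyte-like (-0.019), Rps27l in goblet-like (-0.15) and Rps19bp1 in enteroendocrine-like cells (0.026). Rpl10 in lower-villus enterocyte-like cells was 0.037 with doublets kept and Rpl22l1 in goblet-like cells 0.022 with no filter. The causes were not tested.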
